A study of Mus musculus with 4 samples.

Results

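The 10 genes described here encode the MHC class II presentation machinery. They were taken by symbol from the 32290 features of the count tables: H2-Aa, H2-Ab1, H2-Eb1, H2-DMa, H2-DMb1, H2-DMb2, H2-Oa, H2-Ob, Cd74 and Ciita. Each was followed across B cells, macrophages, other myeloid cells and stromal cells, across both fat depots, and between knockout and wild-type libraries.

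Single cells from subcutaneous (SC) and intraperitoneal (IP) adipose tissue were profiled by 10x Genomics 3' sequencing after enzymatic dissociation, with both cells and nuclei mentioned in the labels. The WT libraries carried Tie2e-cre; TERT+/+; mTmG and the KO libraries carried Tie2e-cre; TERTfl/fl; mTmG. The Tie2e promoter drives Cre in endothelial cells, and all 4 libraries share the Cre transgene and the mTmG reporter. All mice were male, 7 months old and fed a high-fat diet for 5 months. There was 1 library for each genotype and depot, and how many animals each library pooled is not given in the sources used here. Intervals below are therefore 95% intervals for counting error within a library. They say nothing of the spread between mice, and no difference was tested.

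MHC class II molecules are heterodimers that carry peptides from endocytosed protein to the surface of B cells, macrophages and dendritic cells, where CD4 T cells read them. H2-Aa pairs with H2-Ab1 and H2-Eb1 is the beta chain of the other classical molecule. Cd74, the invariant chain, occupies the groove during transport, H2-DM exchanges its remnant for peptide, and H2-DO inhibits H2-DM. Ciita is the coactivator that switches these genes on, and it acts through proteins bound to a conserved X box and Y box in their promoters.

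Promoter windows of 300 bases, from 250 before to 50 after the annotated start, were matched in RefSeq (GRCm38.p6) for 7 of the 10 genes, the others being H2-Ab1, Cd74 and Ciita. The core of the X box (GNAAC) followed by the Y box (ATTGG, the reverse complement of CCAAT) with 15 to 35 bases between was searched on both strands. It was found in 5 of the 7 genes (H2-Aa, H2-Eb1, H2-DMb1, H2-Oa and H2-Ob) and in 3.51% of all 32851 windows. The windows of H2-DMa and H2-DMb2 held no such pair. Shown with the pair in capitals, each 5′ to 3′ on the strand of its gene, are 3 members whose B cell levels are compared between genotypes below, with H2-Eb1 for reference and H2-Eb2, a class II beta chain gene beside H2-Eb1 that is no member of the list.
H2-Aa: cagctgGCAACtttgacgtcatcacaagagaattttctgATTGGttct
H2-Oa: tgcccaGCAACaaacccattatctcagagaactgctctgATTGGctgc
H2-Ob: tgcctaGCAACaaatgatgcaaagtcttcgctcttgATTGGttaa
H2-Eb1: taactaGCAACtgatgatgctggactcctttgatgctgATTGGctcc
H2-Eb2: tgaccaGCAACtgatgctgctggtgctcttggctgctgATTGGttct
These stretches lie at chr17:34287863-34287910 (minus strand), chr17:34092297-34092344, chr17:34238812-34238856, chr17:34305770-34305816 and chr17:34325537-34325583 (plus strand). The X core begins 81 bases before the annotated start of H2-Aa, 76 before H2-Oa, 87 before H2-Ob, 91 before H2-Eb1 and 132 before H2-Eb2. A match of these letters is a description of the sequence and not evidence of binding.

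The 4 tables held 4927 barcodes, of which 4113 passed the filters on genes, mitochondrial UMIs and doublets: 968 and 1955 in the WT and KO libraries of SC and 672 and 518 in those of IP, at median depths of 6706 to 13047 UMIs. Tert, the targeted gene, had 3 and 2 UMIs in the kept cells of WT and KO SC and 8 and 9 in those of IP, which is too few to check the labels. KO SC and WT IP shared 92 barcodes, and no other pair of libraries shared any. The shared barcodes had a median of 605 UMIs in KO SC and 35536 in WT IP, a median of 1.71% of the WT IP count, and 78 of them received the same class in both. Of these 92, KO SC counted 76 as stromal cells and none as B cells, and WT IP counted 75 as stromal cells and 7 as mononuclear phagocytes. The summed levels of KO SC stromal cells and of WT IP macrophages and phagocytes, and the main ratios that rest on them, are given with and without these barcodes.

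Cells were classed by how many of 8 marker genes per list they had UMIs for, at least 3 and at least 2 more than for any other class, with no class II gene among the markers. Short names such as B cells stand for B cell-like cells so defined. B cells numbered 302 and 465 in WT and KO SC, and 20 and 24 in WT and KO IP. All 8 B cell markers had UMIs in each of these sets, whereas the 8 macrophage markers together had 0 to 7 UMIs. The rule that set the classes in part fixes both counts, so they are no separate check. A UMI of the monocyte list was present in 50.3% of KO SC B cells and in 79.2% of KO IP B cells. Macrophages numbered 1, 3, 42 and 10 in the same order, other myeloid cells (dendritic, monocyte and neutrophil lists) 15, 18, 45 and 42, and stromal cells 102, 204, 283 and 215. Since few KO IP macrophages met the margin over the monocyte list, a set of mononuclear phagocytes (macrophage, dendritic or monocyte list highest) was added after the data were seen. It held 100 cells in WT IP, 34 in KO IP and 11 in each SC library.

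The summed level of the 10 genes, as CPM (UMIs per 1e6 UMIs of all cells of a class), separated the antigen-presenting cells from the rest. B cells lay at 28142.1 and 29566.7 CPM in WT and KO SC, and at 29081.1 and 26756.5 CPM in WT and KO IP. On the log2 scale they lay 11.11 above the stromal cells in WT SC and 7.37 above in KO SC. Every B cell had at least 1 class II UMI, and the median B cell lay between 26108.5 and 30330.2 CPM. Macrophages lay at 37764.3 CPM in WT IP (37326.2 to 38206.2, 42 cells; 43136.6 CPM without the 5 shared barcodes) and at 35230.8 in KO IP (10 cells). In WT IP the macrophage sum was 1.53 times that of the other myeloid cells, and 1 of the 42 macrophages had no class II UMI.

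**Figure D1:**
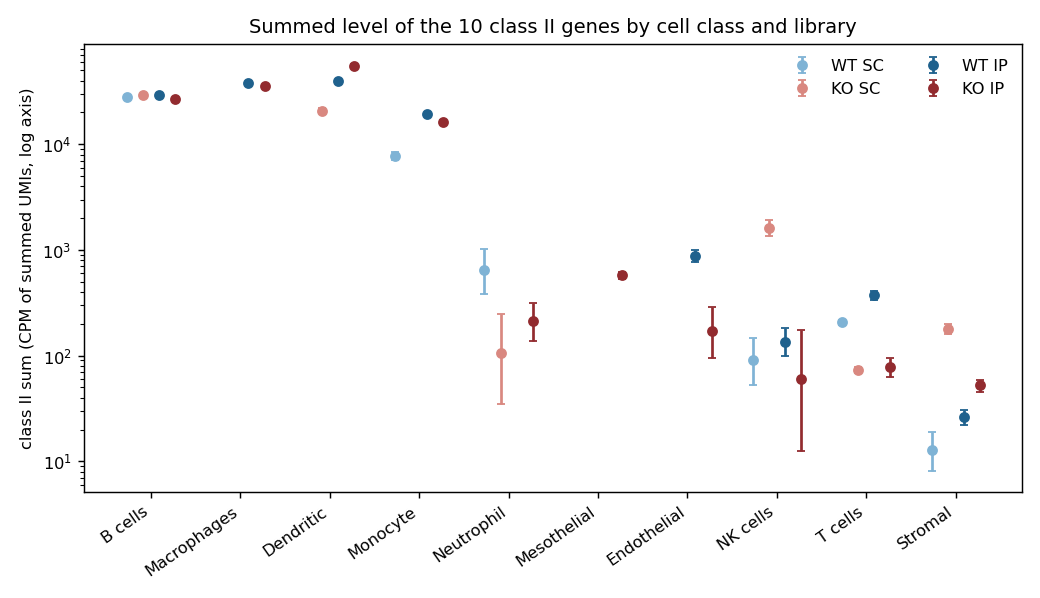
Summed CPM of the 10 class II genes (log axis) by cell class, 1 point per library, for sets of at least 5 cells; bars are 95% Poisson intervals of the summed UMIs. B cells sit between 26756.5 and 29566.7 CPM, while stromal cells sit between 12.7 and 178.6 CPM.

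The other myeloid class was uneven. Its dendritic cells, the classical stimulators of naive T cells, had a median of 40565.5 CPM in WT IP (7 cells) and 60146.0 in KO IP (5 cells). Its monocytes ran from 0 to 101183.5 CPM in WT IP, with a median of 2640.6 over 34 cells, and had a median of 3966.7 over 13 cells in KO IP. Neutrophils were near background: 11 of the 22 in KO IP had no class II UMI and the median was 31.6 CPM. Neutrophils made up 3 of 45 other myeloid cells in WT IP and 22 of 42 in KO IP, so a sum over this class also follows how many neutrophils it holds.

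**Figure D2:**
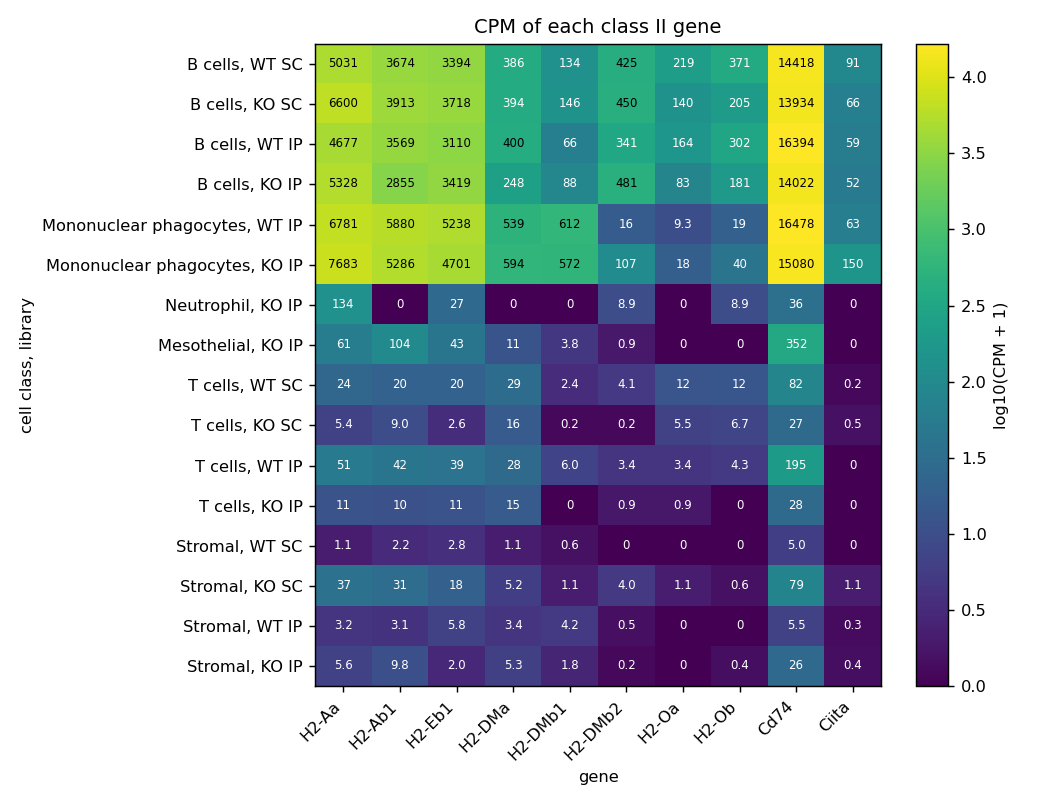
CPM of each class II gene (columns) in each cell class and library (rows), printed in the cells; color is log10(CPM + 1). H2-Oa and H2-Ob are high in the 4 B cell rows and at most 45.6 CPM in phagocytes, and H2-DMb2 is at 15.6 CPM in WT IP phagocytes and 107.2 in KO IP.

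The accessory genes differed between B cells and macrophages in their shares of UMIs. H2-DMb2, one of a pair of H2-DM beta chain genes, took 76.1% of H2-DMb UMIs in WT SC B cells (73.4 to 78.6) and 75.5% in KO SC. In WT IP macrophages it took 0.606% (0.125 to 1.76; 3 of 495 UMIs). The genes of the pair are close copies, H2-DMb1 sharing 581 of its 1654 words of 25 bases with H2-DMb2, so that the split between them is uncertain where reads fall on shared sequence. In the last 400 bases of its transcripts, H2-DMb1 shared 314 of 881 words with H2-DMb2. The last 400 bases of H2-DMb2 shared most with another gene, Zw10, at 71 of 382 words. H2-Oa and H2-Ob, both chains of H2-DO, took 38.4% of the UMIs of the 5 DO and DM genes in WT SC B cells. They took 0.328% in WT IP macrophages (3 of 916 UMIs), where H2-Oa had 0 UMIs, which allows up to 3.99 CPM. Dendritic cells lay between, at 10.6% in WT IP and 10.9% in KO IP.

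Stromal cells were low in all libraries. In SC the sum was 12.7 CPM for WT (23 UMIs) and 178.6 CPM for KO (312 UMIs), and in IP it was 26.1 CPM for WT (161 UMIs) and 52.2 CPM for KO (234 UMIs). A class II UMI was present in 18 of 102, 25 of 204, 104 of 283 and 59 of 215 cells in that order. In KO SC 5 cells held 291 of the 312 UMIs (93.3%), and in KO IP the top cell held 99 of 234. The log2 ratio of KO over WT was 3.81 in SC (3.20 to 4.49) and 1.0 in IP (0.70 to 1.30). Without the shared barcodes these were 3.82 and 0.74. In SC, H2-Aa had 2 UMIs in WT and 65 in KO, H2-Ab1 4 and 54, H2-Eb1 5 and 32, and Cd74 9 and 138. These 4 members passed the minimum of 20 UMIs over both libraries through KO alone, so that their direction was set by the minimum and is not read against all genes, of which 9.22% were higher and 8.84% lower. In IP 6 members passed, with Cd74 at 2.25 (1.71 to 2.86), H2-Ab1 at 1.65 (0.86 to 2.53), H2-Aa at 0.77 (−0.13 to 1.71), H2-DMa at 0.65 (−0.26 to 1.57), H2-DMb1 at −1.18 (−2.60 to −0.06) and H2-Eb1 at −1.48 (−2.78 to −0.46), where 10.3% of all genes were higher and 6.47% lower. Without the shared barcodes H2-Aa (0.22) and H2-DMa (0.17) were within 1.5-fold, H2-DMb1 had 17 UMIs and fell under the minimum, and Cd74 (2.14), H2-Ab1 (1.12) and H2-Eb1 (−1.88) stayed past it. Nearly all of these UMIs lay in stromal cells that also held a UMI of a B cell, macrophage, dendritic or monocyte marker: 311 of 312 in KO SC and 233 of 234 in KO IP. The same held in WT, with 22 of 23 in SC and 158 of 161 in IP. Most stromal cells held such a UMI, 142 of 204 in KO SC and 87 of 102 in WT SC. Their median depths were 12065 and 22250 UMIs, so this split also follows depth. Dendritic markers alone had a UMI in 59.8% of KO SC and 74.5% of WT SC stromal cells. The 62 KO SC cells without such a marker, at a median depth of 645 UMIs, held 1 class II UMI, as did the 15 of WT SC. When cells with a marker of any other class were left out, the ratio was −0.89 in SC (−7.18 to 5.40, 61 KO and 14 WT cells) and −1.27 in IP (−6.98 to 2.37, 20 and 24 cells), which at this depth gives no direction. KO SC stromal cells had 51 B cell marker UMIs, with all 8 markers present (29.2 CPM), and WT SC had 8, with 3 of 8 present (4.43 CPM). The part of such cells in the result was not tested otherwise. Between depots, the stromal sum of IP over SC was 1.04 on the log2 scale in WT and −1.78 in KO (1.30 and −1.81 without the shared barcodes). In WT 6 members passed the minimum, mostly through the deeper IP library, and of the 4 past 1.5-fold higher the interval left out 0 for H2-DMb1 alone (26 and 1 UMIs). In KO 4 of 5 were lower, each high in the few SC cells above. Nothing is read from these counts against all genes, of which 19.1% were higher and 14.0% lower in WT, and 21.0% and 12.6% in KO.

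T cells gave the level that cells not known for class II genes carried. Their sum was 206.0 and 73.2 CPM in WT and KO SC and 373.1 and 77.5 CPM in WT and KO IP, but a single cell held 537 of 954 UMIs in WT SC and another 378 of 436 in WT IP. The second of these barcodes was among those shared with KO SC, and without them WT IP lay at 58.6 CPM. The make-up of these UMIs differed from that of B cells. H2-DMa was 14.3% of the class II UMIs in WT SC T cells and 21.2% in KO SC, against 1.37% and 1.33% in B cells. The DO genes were 11.7% and 16.7%, against 2.10% and 1.17%. After each cell was thinned to 2000 UMIs, 5.56% of WT SC T cells and 2.95% of KO SC T cells had an H2-DMa UMI (91 of 458 and 128 of 1160 cells unthinned), compared with 52.2% and 54.7% of B cells (87.1% and 81.9% unthinned). Mesothelial cells of KO IP, which line the serous surface of the fat, had class II UMIs in 21 of 22 cells with a median of 359.9 CPM per cell. All 22 also held a UMI of a B cell, macrophage, dendritic or monocyte marker. Their median depth was 51825 UMIs, and holding such a UMI also follows depth.

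In SC B cells the classical genes and Cd74 were close between genotypes, and the genes of H2-DO were lower in KO. The class II sum had a log2 ratio of KO over WT of 0.07 (0.05 to 0.09). Of the 10 members, all with at least 20 UMIs, none was past 1.5-fold higher and 2 were lower. Over the 8882 genes compared, 5.64% were higher and 10.1% lower, with a median log2 ratio of −0.08, while the median of the members was 0.06.

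H2-Ob, the DO beta chain, stood at 370.9 and 205.3 CPM in WT and KO SC, and at 301.8 and 181.0 CPM in WT and KO IP. H2-Oa, the alpha chain, stood at 219.0, 139.8, 164.0 and 82.8 CPM in the same order. Both KO libraries lay below both WT libraries for each gene. The share of all genes that separated in this way is not given here. The SC log2 ratios were −0.85 for H2-Ob (−1.02 to −0.68) and −0.65 for H2-Oa (−0.86 to −0.44), and with 20 and 24 cells in IP they were −0.73 (−1.41 to −0.07) and −0.97 (−1.99 to −0.02). B cells were deeper in WT SC than in KO SC (medians of 5958 and 4900 UMIs), so the share of cells was also compared after thinning to 2000 UMIs, which left out 3 and 12 shallower cells. An H2-Ob UMI was then found in 51.8% of WT SC B cells and 36.2% of KO SC B cells (85.1% and 63.2% unthinned), and in 2.67% and 1.13% of T cells. As a share of DO and DM UMIs, which does not depend on depth or on the total, the DO genes took 38.4% in WT and 25.8% in KO of SC, and 36.6% in WT and 24.4% in KO of IP. The share was also lower in KO in SC B cells with a UMI of Cr2, a complement receptor of mature B cells (35.5% and 24.8%), and without (40.8% and 26.3%).

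The genes of H2-DM, Cd74 and Ciita lay within 1.5-fold in SC B cells. In SC B cells H2-DMa had a log2 ratio of 0.03 (−0.11 to 0.17), H2-DMb1 of 0.13 (−0.11 to 0.37) and H2-DMb2 of 0.08 (−0.05 to 0.22). Cd74 had −0.05 (−0.07 to −0.03) and Ciita −0.47 (−0.79 to −0.15). Ciita stood at 90.7 CPM in WT SC and 65.5 in KO SC, and after thinning its UMIs were found in 39 of 299 and 57 of 453 B cells (36.4% and 25.4% of cells unthinned). In SC B cells with a Cr2 UMI Ciita was past 1.5-fold lower, at −0.71 (−1.23 to −0.22), and without one it was −0.21 (−0.65 to 0.23), a difference that was not tested. In IP B cells H2-DMa was past 1.5-fold lower, at −0.69 (−1.27 to −0.12; 61 and 48 UMIs), H2-DMb1 was 0.39 (−0.79 to 1.71), H2-DMb2 0.49 (−0.01 to 1.01) and Cd74 −0.23 (−0.30 to −0.15).

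Among the classical genes H2-Aa had the largest log2 ratio in SC B cells, with 5031.0 CPM in WT SC against 6600.5 in KO SC, and 4677.4 CPM in WT IP against 5327.5 in KO IP. The log2 ratio in SC was 0.39 (0.35 to 0.43), within 1.5-fold, and those of H2-Ab1 and H2-Eb1 were 0.09 and 0.13. Its share of H2-Aa and H2-Ab1 UMIs was higher in KO in B cells of both depots, 57.8% against 62.8% in SC and 56.7% against 65.1% in IP. The same was seen in mononuclear phagocytes, at 51.1% and 60.6% in SC and 53.6% and 59.2% in IP. In none of these 4 comparisons did the WT and KO intervals overlap. The intervals count each UMI as independent and leave out the spread between cells, and the SC phagocytes were 11 cells in each library. The share of other gene pairs without overlap is not given here. Tert genotype and any other difference between the mice of the libraries, such as the H2 alleles they carried, cannot be told apart here, although the methods describe both genotypes as littermates, and this holds for each KO and WT value of these genes.

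**Figure D3:**
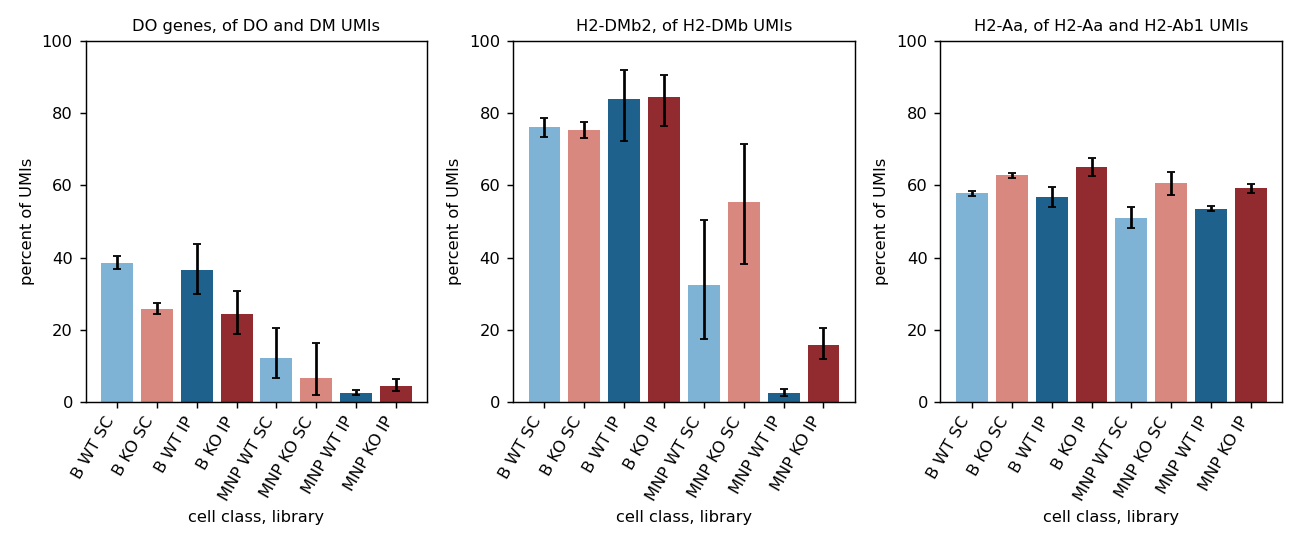
Percent of UMIs taken by the DO genes, by H2-DMb2 and by H2-Aa among the genes named above each panel, for B cells (B) and mononuclear phagocytes (MNP) of each library; bars are values and whiskers 95% Clopper-Pearson intervals. The DO share of B cells is 38.4% in WT SC and 25.8% in KO SC, and the H2-Aa share is higher in KO in each of the 4 pairs.

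In IP mononuclear phagocytes the classical genes were again close and the low accessory genes were higher in KO. The sum had a log2 ratio of −0.06, and −0.13 without the shared barcodes. Of the 10 members 4 were past 1.5-fold higher and none lower, where 16.8% of all genes were higher and 14.8% lower. H2-DMb2 stood at 15.6 CPM in WT (25 UMIs in 11 of 100 cells) and 107.2 in KO (48 UMIs in 15 of 34 cells). Its log2 ratio was 2.77 (2.06 to 3.54), and 2.53 without the shared barcodes. Its share of H2-DMb UMIs was 2.48% in WT and 15.8% in KO, and within the macrophages 0.606% and 15.2%. B cell markers were near 0 in these phagocytes: 7 of the 8 had no UMI in KO and 6 of 8 in WT, at summed levels of 11.2 and 5.61 CPM. The rule that set the class in part required this. Ciita followed at 1.25 (0.78 to 1.71), H2-Ob at 1.12 (0.17 to 1.99) and H2-Oa at 0.97 (−0.51 to 2.26). Without the shared barcodes these were 1.15, 1.26 and 0.94. Ciita had 101 UMIs in 47 of 100 WT cells and 67 UMIs in 16 of 34 KO cells. The share of cells with a Ciita UMI was thus alike, at 47.0% in WT and 47.1% in KO. Dendritic markers stood at 321.1 CPM in WT and 696.8 in KO, and their part in these values was not tested.

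**Figure D4:**
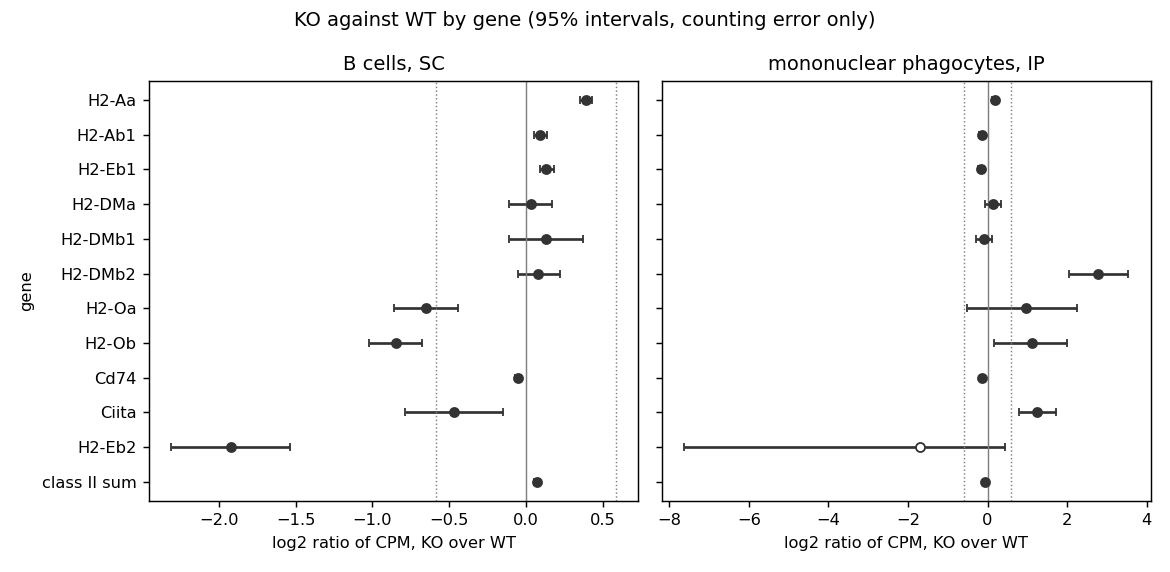
Log2 ratio of CPM, KO over WT, for each class II gene, H2-Eb2 and the sum in SC B cells (left) and IP mononuclear phagocytes (right); whiskers are 95% intervals for counting error, dotted lines mark 1.5-fold and the open point had under 20 UMIs. H2-Oa and H2-Ob are lower in KO in B cells, and H2-DMb2 and Ciita are higher in KO in phagocytes. The share of phagocytes with a Ciita UMI is 47.0% in WT and 47.1% in KO.

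In the other myeloid class of IP, with 42 KO and 45 WT cells, the sum had a log2 ratio of 0.05 and 3 members were past 1.5-fold higher (H2-DMb2 at 1.34, Ciita at 0.90 and H2-Oa at 0.80, with an interval from −0.36 to 1.95) with none lower, where 17.6% of all genes were higher and 26.2% lower. Without the neutrophils the sum was 0.57 higher in KO, and with each cell weighted equally it was −0.56, so its direction rests on how the class is drawn.

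A list of 29 further genes of the pathway (promoter factors, proteases, turnover, costimulation, interferon gamma route, lineage factors and H2-Eb2) was set beside the members. In SC B cells 28 had at least 20 UMIs, 1 was past 1.5-fold higher and 4 were lower, near the shares over all genes (5.64% and 10.1%). The higher one was Rfxank at 0.67, a subunit of the X box complex, with an interval that reached 0 (−0.66 to 2.25). The 4 lower ones were H2-Eb2 at −1.92 (−2.31 to −1.54), Irf8, a lineage factor, at −0.86 (−1.13 to −0.60), Icosl, a costimulatory ligand, at −0.73, and March1, the ubiquitin ligase that removes class II from the surface, at −0.68 (−0.89 to −0.46). In IP phagocytes 26 of the 29 were compared, 5 were higher and 1 lower, where 16.8% of all genes were higher and 14.8% lower, so that the count higher is near that of all genes. Among the higher ones were March1 at 1.40 (0.88 to 1.90), Irf8 at 1.27 (0.77 to 1.75), Jak2 at 0.65 and Ctss, the protease that trims the invariant chain, at 0.59. Nfya, a subunit of the Y box factor, was lower at −0.97 (−2.22 to −0.02). In IP B cells March1 was at −1.17 (−2.21 to −0.23) and Irf8 at 0.33 (−0.72 to 1.47).

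H2-Eb2 was lower in KO in SC B cells, and in IP B cells it pointed the same way but fell under the minimum of 20 UMIs. It had 227 UMIs in 302 WT SC cells (121.8 CPM) and 78 in 465 KO SC cells (32.2 CPM), then 10 in 20 WT IP cells and 1 in 24 KO IP cells. The region on chromosome 17 from H2-Oa to H2-Eb2 (34092340 to 34341412, GRCm38) holds 20 features, and this neighbourhood was looked at after the values of H2-Eb2 were seen. In SC B cells 6 other genes of the region had at least 20 UMIs. Tap2, a peptide transporter of the class I route, was lower at −0.77 (−1.18 to −0.36), with 0.35 (−1.21 to 2.14) in IP B cells, whereas Brd2, Psmb9, Tap1 and Psmb8 were within 1.5-fold. Gm20513, annotated as antisense to H2-Eb1, had 108 UMIs in WT SC (58.0 CPM) and 1039 in KO SC (428.3 CPM), a log2 ratio of 2.88. It was also higher in KO in IP B cells, at 65.6 and 243.1 CPM, in SC phagocytes, at 19.5 and 192.4 CPM, and in IP phagocytes, at 45.5 and 102.7 CPM. Relative to H2-Eb1, on the opposite strand, its UMIs were 1.71% in WT SC B cells and 11.5% in KO SC B cells. Whether the reads were assigned by strand is not given in the sources used here, and without that the UMIs of these overlapping genes cannot be fully told apart.

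Across 17 class and library points of at least 20 cells, the genes whose level followed the class II sum most closely were Gm15987 and Ly86 (Pearson r of 0.96 each), then Irf5, Cyp4f18 and Cybb (0.95 each). Ly86 pairs with a Toll-like receptor homolog on B cells and myeloid cells, and Cybb is a subunit of the phagocyte oxidase. Among the members the lowest pair was H2-DMb1 with H2-Oa at 0.60. The points share libraries and depth, so these values are descriptive.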

How the data were processed

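The deposited values were raw counts of UMIs per gene and cell barcode, which the file headers tie to Cell Ranger 7.0.0 as run by the authors; the submitters' processing notes also name STAR 2.6 and mm10. Whether intronic reads were counted is not given in the sources used here.

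Cells needed 200 or more genes and no more than 25% mitochondrial UMIs (scanpy 1.11.5), and 23 doublets (0.556%) called per library by Scrublet at an expected rate of 5% were removed. UMIs were summed per class and library and divided by all UMIs of those cells. Levels carry exact Poisson, shares Clopper-Pearson and ratios conditional binomial 95% intervals (scipy 1.17.1), which cover counting error only. Ratios used 0.5 added UMIs for single genes, with at least 20 UMIs over both libraries and at least 30 cells in each, unless smaller numbers are printed. The ratio was tested on simulated counts, drawn independently for each gene from the pooled totals. These leave out the clumping of UMIs in few cells, so the test says nothing of that. With 1 library per group, genes were called by size, at 1.5-fold. A count of 0 was read as allowing up to 3 UMIs. Besides the members, the rule named the 2 pathway genes that were highest and the 2 that were lowest in KO past 1.5-fold with an interval that left out 0, and the 5 genes of most like pattern; other pathway genes past 1.5-fold and the genes of the chromosome 17 region were named after their values were seen. The values of 1 pathway gene are not reported here. The members and lists were chosen with earlier results of these data known.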

Additional observations from a re-analysis of the deposited data

Results flagged for a closer look

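The KO over WT difference pointed opposite ways in the depots for several results, with intervals for counting error that left out 0 on both sides; with 1 library per group none of these differences was tested. In stromal cells H2-Eb1 had a log2 ratio of 2.61 in SC and −1.48 in IP. The SC value came from 32 UMIs in KO, held by 4 cells, and 5 in WT. It passed the minimum through KO alone, so its direction was set by the minimum. In B cells H2-Ab1 had 0.09 in SC and −0.32 in IP, and the class II sum 0.07 in SC and −0.12 in IP, the IP values resting on 20 and 24 cells. For the stromal sum it was the depot difference that pointed opposite ways in the genotypes. The log2 ratio of IP over SC was 1.04 in WT and −1.78 in KO. The KO over WT ratio of this sum was above 0 in both depots. The KO value of −1.78 rests on few cells, since 5 KO SC stromal cells held 291 of the 312 UMIs (93.3%). This depot difference was not tested either.

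Class II UMIs were also counted outside the classes. Cells that met no class had a class II sum of 4939.9 and 3251.1 CPM in WT and KO SC, and of 25215.4 and 9701.2 CPM in WT and KO IP. Barcodes under 200 genes held 8 and 7 class II UMIs in WT and KO SC, and 18 and 7 in WT and KO IP.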

How the results depend on the processing

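Each log2 ratio was recomputed under other class rules, filters, weights and scalings. Sets left with under 10 cells gave no value. This removed the rule with no marker of another class for IP other myeloid cells of WT, and so for macrophages set against them. The rule of 80% of marker UMIs was left out for macrophages by choice and not run. No paired analysis was possible because the labels carry no replicate numbers and each group is 1 library. Leaving out a replicate was likewise not possible. The alternatives without neutrophils, as phagocytes and without shared barcodes were chosen after seeing the data. Of 116 alternatives for the class II sums, 77 lay within the main interval and 8 changed sign. H2-Oa and H2-Ob stayed below 0 in B cells in all 22 of theirs, between −0.66 and −0.41 and between −0.88 and −0.73. Leaving out the shared barcodes, counted among these, could not change any SC B cell value, since no B cell was among those barcodes. Ciita in SC B cells ran from −0.59, past 1.5-fold, to −0.19.

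The B cell sum in SC (0.07) moved to 0.10 by 80% of marker UMIs, 0.09 with no marker of another class, 0.10 with cells weighted equally and 0.17 with median-of-ratios scaling. The IP other myeloid sum (0.05) became −0.27 with 2 markers, −0.70 with 4 markers, −0.27 by marker UMIs, −0.56 with cells weighted equally and −0.06 as mononuclear phagocytes, and 0.16 by scaling, 0.57 without neutrophils and 0.15 without the shared barcodes. The stromal KO over WT ratio in SC (3.81) became −0.89 with no marker of another class, from no more than a few UMIs, and 2.76 with cells weighted equally. In IP (1.0) it became 0.66 by marker UMIs, −1.27 with no marker of another class and 0.43 with cells weighted equally. Stromal IP over SC in KO (−1.78) became −2.20 with 2 markers, −2.40 by marker UMIs, 0.09 with no marker of another class and −1.21 with cells weighted equally.

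Between classes, B cells over stromal cells in WT SC (11.11) moved to 9.78 with no marker of another class; in KO SC (7.37) to 6.91 with 2 markers, 10.77 with no marker of another class and 8.16 with cells weighted equally. Macrophages over other myeloid cells in WT IP (0.61) moved to 0.29 with 2 markers, 0.87 with cells weighted equally and 0.90 without the shared barcodes. Other myeloid over stromal cells in WT IP (9.89) moved to 10.28 with 2 markers, 10.79 by marker UMIs, 9.18 with cells weighted equally, 10.41 as phagocytes and 9.54 without the shared barcodes; in KO IP (8.94) to 8.21 with 4 markers, 9.86 by marker UMIs, 5.60 with no marker of another class, 8.19 with cells weighted equally, 9.50 without neutrophils and 9.36 as phagocytes.

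Members past 1.5-fold numbered 2 in SC B cells and 0 past 2-fold; 3 in IP other myeloid cells and 1 with at least 50 UMIs or past 2-fold; 4 in SC stromal cells and 10 with no minimum; 6 in IP stromal cells and 2 with at least 50 UMIs. Changes of sign were counted for single genes with a main interval that left out 0. In SC B cells this was Cd74 (0.00 with no marker of another class, 0.04 by scaling). In IP other myeloid cells these were H2-Aa (−0.44 with 4 markers, −0.03 by marker UMIs, −0.28 with cells weighted equally), H2-DMb1 (0.16 without neutrophils) and Ciita (−0.52 by marker UMIs). H2-DMb1 in SC B cells, with a main interval that held 0, ran from −0.05 to 0.22. The cause was not tested for any of these.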
